A study of Arabidopsis thaliana with 8 samples.

Results

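Differentiating xylem was set against phloem on 5 of the 8 arrays of a study of sorted root cells, and 22746 probe sets were compared. The xylem group had 3 arrays, labelled as differentiating xylem. The phloem group had 2 arrays, labelled as sieve cells together with companion cells. All were wild type Columbia plants of Arabidopsis thaliana, harvested as seedlings of 6 days that had grown at 22 degrees with 16 hours of light and 8 hours of dark. Root tips of about 1 cm were turned into protoplasts, and the cells that carried the green fluorescent protein of a marker line were collected on a sorter. The study used 1 marker line per cell type, which the labels do not name. RNA passed through 2 cycles of amplification before it was hybridised. A further 3 arrays of sorted cortex, from the same genotype and age, entered the estimate of the spread and are given below as a further level. Every group had been through protoplasting and sorting. The labels call the arrays of a group biological replicates and do not say whether they came from separate sortings, so the p-values measure the spread between these arrays.

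Xylem and phloem arise side by side in the stele of the root. A differentiating xylem cell deposits a thick secondary wall of cellulose, xylan and lignin in bands, then dies and is emptied by its own hydrolases to become a water-conducting tube. A sieve element stays alive but loses its nucleus and most organelles, and the companion cell beside it keeps a dense cytoplasm, loads sugar and supplies proteins and signals.

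The labels were first read against marker genes. Summed over 4 measured xylan genes, intensity ran from 14585.6 to 16480.6 on the xylem arrays, against 449.3 to 459.8 on the phloem arrays. Summed over 4 phloem signal genes it ran from 69.2 to 105.0 on the xylem arrays, against 11141.7 to 11786.8 on the phloem arrays. Both labels thus stood beside these sets of markers, although the genes of secondary wall cellulose and of sieve element structure are not analysed here. The lists were chosen with earlier results of these data known, so they are no independent check of the labels. Other listed markers were less uniform. Of 3 measured xylem regulators 2 were higher in xylem, while LHW was lower, with 119, 84.9 and 89.9 against 248.5 and 246.9 in phloem. Of 3 measured phloem regulators 2 were lower in xylem. The remaining one, OPS, was dim in both, at 7.15, 10.7 and 14.1 in xylem and 4.92 and 14.6 in phloem. Markers of cell types that were not sorted were not evenly spread: 2 root hair expansins summed to 18.1 to 53.0 in xylem, against 270.2 to 399.8 in phloem and 94.2 to 133.0 in cortex. The 2 measured endodermis markers summed to 90.0 to 97.1 in xylem, against 268.2 to 301.9 in phloem and 465.1 to 735.3 in cortex. The 4 cortex markers were low in both, at 36.9 to 66.0 in xylem and 111.3 to 112.0 in phloem, against 3622.9 to 4575.0 in cortex. The part of these other cells in the phloem-side differences below was not tested.

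As whole arrays, the 3 xylem arrays had Pearson's r of 0.949 to 0.982 among each other across probe sets, against 0.728 to 0.790 with the phloem arrays. The median intensity was 41.2 to 42.7 on the xylem arrays, against 70.3 to 73.6 on the phloem arrays. Xylem replicate 2 stood apart from the other xylem arrays: among the 11373 probe sets brighter than the median probe set, it was at least 2-fold below both others for 1355 and at least 2-fold above both for 205. Its ratio of 3' to 5' actin signal, a sign of RNA quality, was 9.69, against 5.26 and 5.53 on the other xylem arrays and 7.48 and 8.64 on the phloem arrays. Per-array values are given below for PYK10, NAI2, NAI1, JAL34 and MSRB9, in which it was far below the other xylem arrays. It was also well below them in further genes given below, among them NDB3, EXLA2, NET4B, NRPB12 and WRKY22. In bulk samples, fewer cells of a type and less RNA per cell cannot be told apart.

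Of the 22746 probe sets, 9639 (42.4%) differed between xylem and phloem at an adjusted p under 0.05 in limma, 3163 (13.9%) higher and 6476 (28.5%) lower in xylem. All differences below are log2 fold changes, xylem minus phloem, on a scale of log2(intensity + 16), on which the change of dim genes is understated. The balance of the directions depended on the scaling: the share of calls that were higher was 32.8% on the deposited scale, but quantile normalization gave 52.1%, median centring 71.2%, trimmed-mean scaling 36.3% and spike-in scaling 20.7%. In that order the medians over all probe sets were -0.15, 0.08, 0.46, -0.10 and -0.33. Large differences were common in both directions. At least 4-fold differences were called for 747 probe sets (3.28%) higher and 1894 (8.33%) lower in xylem, and at least 16-fold ones for 206 (0.906%) higher and 253 (1.11%) lower. Every xylem array was above every phloem array for 4857 probe sets (21.4%) and below for 8834 (38.8%). The genes with a symbol, from which most groups below are drawn, were 1551. Of these 212 (13.7%) were called higher and 542 (34.9%) lower, with a median of -0.30. Counts of calls in the groups below stand beside these shares and those of all probe sets.

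**Figure D1:**
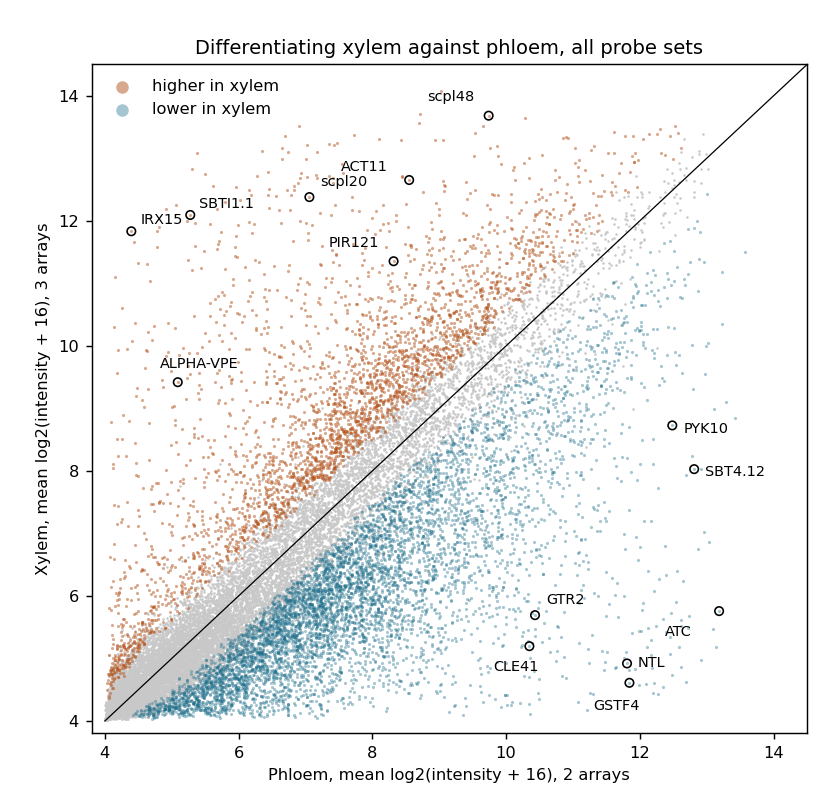
Mean log2(intensity + 16) of each probe set on the 3 xylem arrays (vertical axis) against the 2 phloem arrays (horizontal axis), with called probe sets coloured and the line of equal level drawn. The named genes lie far from the line on both sides, from IRX15 at 7.44 to ATC at -7.43.

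Genes of xylan synthesis, which builds the secondary wall, lay on the xylem side. All 4 measured xylan genes were higher in xylem, with a median of 5.59, where 13.9% of all probe sets were called higher. IRX15, needed for normal xylan chains, had 3997, 3093 and 3866 in xylem, against 3.17 and 7.09 in phloem. GUT1 (IRX10-L), the close relative of the xylan xylosyltransferase IRX10, had 1602, 1795 and 1786 in xylem, against 281 and 249.7 in phloem. For both genes the xylem arrays stood far above the phloem arrays, and the phloem values of IRX15 lay under the added 16. The log2 fold change was 2.63 (SE 0.16, adjusted p = 4.7e-06) for GUT1 and 7.44 (SE 0.20, adjusted p = 1.5e-07) for IRX15.

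The TRICHOME BIREFRINGENCE-LIKE (TBL) family, whose studied members acetylate wall polysaccharides, was divided between the tissues. Of 23 measured members 8 were higher and 7 lower in xylem, where 13.9% and 28.5% of all probe sets were. The median of -0.26 turned positive under quantile normalization and median centring, at 0.10 and 0.35. The count was 5 higher and 5 lower without phloem replicate 2, and 5 higher and 7 lower after spike-in scaling. TBL37 had 4375, 5396 and 3485 in xylem, against 301 and 323 in phloem, a log2 fold change of 3.73 (SE 0.21). Its cortex mean of 3272 was also far above the phloem values. TBL38 had 5066, 7487 and 4236 in xylem, against 859 and 989 in phloem, or 2.54 (SE 0.24). AT2G31110, listed as TBL40, followed the same pattern at 3.37 (SE 0.19) and TBL19 at 3.41 (SE 0.35). In the other direction TBL45 had 34.4, 77.9 and 52.3 in xylem, against 2614 and 1849.5 in phloem, or -5.01 (SE 0.31), and it was dim in cortex too, at a mean of 21.2. TBL28 had 16.6, 17.7 and 21.5 in xylem, against 517 and 425 in phloem, or -3.81 (SE 0.20). TBL35, one of the xylan acetyltransferases, was also lower in xylem at -2.11 (SE 0.23), while TBL34, of the same function, was higher at 5.82 (SE 0.17). For these 8 genes the adjusted p did not exceed 0.00012.

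Enzymes that add glucuronic acid to arabinogalactan proteins, a group put together after the values had been seen, were all higher in xylem, 3 of 3. The share called higher over all probe sets was 13.9%. GlcAT14B (AT5G15050) had 1749, 1548 and 1247 in xylem, against 187 and 175 in phloem. Its log2 fold change was 2.94 (SE 0.20), and those of GlcAT14C (AT2G37585) and GlcAT14A (AT5G39990) were 2.39 (SE 0.16) and 1.41 (SE 0.27), with adjusted p-values of at most 0.003. In that order the cortex means were 851, 361 and 663, each above both phloem arrays.

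Enzymes that cut or loosen walls were found on both sides, and their shares of lower calls are read against the 28.5% of all probe sets and the 34.9% of genes with a symbol that were called lower. Among 10 xyloglucan endotransglucosylase/hydrolases, which cut and rejoin xyloglucan, 1 was higher and 5 lower in xylem, with a median of -1.11. The number lower was 2 without phloem replicate 1, 3 without phloem replicate 2 and 3 after median centring. Of 19 expansins, which loosen growing walls, 2 were higher and 7 lower, near that background, with a median of -0.45 that became 0.16 after median centring, where 5 were higher and 5 lower. Of 15 endoglucanases of glycosyl hydrolase family 9 the count was 2 higher and 5 lower, again near the background. The median of -0.20 became 0.09 after quantile normalization and 0.41 after median centring, where 6 were higher and 4 lower. Each family held genes on the xylem side. GH9B5 had 859, 789.7 and 580.0 in xylem, against 18.8 and 26.7 in phloem, or 4.28 (SE 0.23, adjusted p = 1.9e-06). XTH32 had 347, 652 and 204 in xylem, against 26.0 and 29.2 in phloem, or 3.11 (SE 0.42, adjusted p = 0.00039). The expansin-like gene EXLA2 had 346, 124 and 332 in xylem, against 15.8 and 46.7 in phloem, or 2.54 (SE 0.46, adjusted p = 0.002). No array of these 3 genes overlapped between the tissues. The lowest member of the 3 families was GH9B8, with 19.4, 6.96 and 5.47 in xylem, against 1537 and 1078 in phloem and a mean of 21.2 in cortex, or -5.65 (SE 0.44). XTH21 at -2.22 (SE 0.41) and GH9B6 at -2.15 (SE 0.16) were likewise dim in cortex, at means of 7.56 and 4.35. Other phloem-side genes were bright in cortex: XTH19 stood at -3.50 (SE 0.30), GH9B13 at -3.49 (SE 0.21) and EXPA9 at -2.29 (SE 0.22), with 668, 1859 and 439 as their cortex means, above both vascular tissues. EXPA7 and EXPA18, counted among the 7 lower expansins, are the root hair markers given above.

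**Figure D2:**
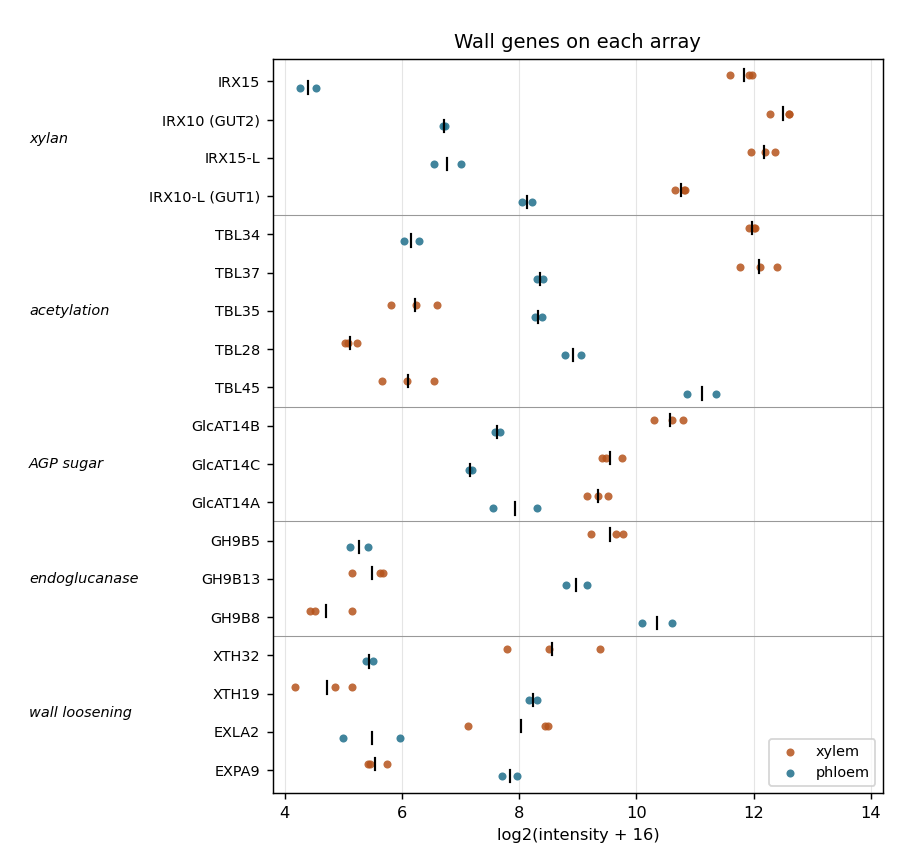
Level of wall genes on each array, as log2(intensity + 16) on the horizontal axis, with xylem points above phloem points for each gene and a black line at each mean. The xylan genes and arabinogalactan enzymes (AGP sugar) lie to the right in xylem, while the acetylation, endoglucanase and wall loosening groups each hold genes on both sides.

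Of 4 measured lignin genes 2 were higher in xylem and none lower, where 13.9% and 28.5% of all probe sets were. The peroxidase AT5G51890 had 13251, 11881 and 11105 in xylem, against 353 and 455 in phloem, or 4.85 (SE 0.27, adjusted p = 2.4e-06). HCT, an enzyme of the monolignol pathway, had 4028, 6258 and 3645 in xylem, against 1173 and 1731 in phloem, or 1.65 (SE 0.28). The peroxidases PRX52 at 0.15 (SE 0.27) and AT5G66390 at -0.40 (SE 0.31) did not pass the test, and every xylem array of AT5G66390 was below both phloem arrays. UGT72E2, which attaches glucose to monolignols, had 145, 145 and 120.2 in xylem, against 677 and 545 in phloem and a mean of 3389 in cortex. It was lower in xylem by a log2 fold change of -2.03 (SE 0.24, adjusted p = 0.0002), as were its relatives UGT72E1 at -1.82 (SE 0.28) and GT72B1 at -3.19 (SE 0.22). Of all 51 UDP-glycosyltransferases measured, 5 were higher and 15 lower in xylem, the lower calls near the 28.5% of all probe sets. Their median of -0.27 became 0.34 after median centring, where 12 were higher and 11 lower. Without phloem replicate 2 the count was 2 higher and 12 lower, without xylem replicate 1 or 3 it was 3 and 15, and after spike-in scaling 2 and 18. The highest was UGT87A2, with 1737, 2321 and 1549 in xylem against 169 and 156 in phloem, or 3.38 (SE 0.19). UGT74F1, which glucosylates salicylic acid, had 651, 1006 and 799 in xylem, against 107 and 141 in phloem, or 2.56 (SE 0.23).

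Proteases divided between the tissues member by member. Of the 4 vacuolar processing enzymes, cysteine proteases with a part in vacuolar cell death, ALPHA-VPE had 605, 849 and 580.4 in xylem, against 20.6 and 15.7 in phloem. BETA-VPE had 79.8, 60.3 and 60.7 in xylem, against 255 and 226 in phloem. The arrays of the tissues stood apart in opposite directions, at 4.33 (SE 0.29, adjusted p = 7.0e-06) for ALPHA-VPE and -1.64 (SE 0.23, adjusted p = 0.00051) for BETA-VPE. GAMMA-VPE (0.46, SE 0.19) and DELTA-VPE (0.10, SE 0.21) did not pass the test. Among 29 serine carboxypeptidase-like genes 6 were higher and 11 lower in xylem, with a median of -0.18 that became 0.22 after quantile normalization and 0.43 after median centring. The balance of calls turned with it, to 7 higher and 6 lower after quantile normalization and 11 higher and 5 lower after median centring. Over all probe sets 13.9% were called higher and 28.5% lower. The 11 lower calls lay near the 34.9% of genes with a symbol that were called lower. On the higher side scpl48 had 12228, 14387 and 12843 in xylem, against 837 and 839.9 in phloem, or 3.94 (SE 0.20). SCPL45 had 2225, 1106 and 2134 in xylem, against 229 and 286 in phloem, or 2.69 (SE 0.29). The lowest, scpl40, had 3.90, 35.7 and 31.3 in xylem, against 138 and 161 in phloem, or -2.18 (SE 0.40). Of 8 subtilases, secreted serine proteases, 1 was higher and 2 were lower, near the shares of all probe sets. The number higher was 4 after median centring and 2 without xylem replicate 2. SBTI1.1 was the higher one, and SBT4.12 was lower with 269.6, 156 and 347 in xylem, against 6656 and 7732 in phloem, at -4.78 (SE 0.42, adjusted p = 3.4e-05).

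Machinery that delivers vesicles to the plasma membrane was higher in xylem. All 7 measured genes of the exocyst, the complex that tethers secretory vesicles, were called higher, with a median of 1.58, where 13.9% of all probe sets were called higher. They include the pairs SEC5A with SEC5B and SEC15A with SEC15B, so they stand for fewer than 7 subunits. EXO84B had 1745, 1108 and 1661 in xylem, against 299 and 250.1 in phloem, or 2.36 (SE 0.23). SEC10 had 1713, 1842 and 1816 in xylem, against 388 and 304 in phloem, or 2.33 (SE 0.16). The lowest of the 7 was SEC5B, with 60.7, 39.3 and 59.6 in xylem against 18.9 and 20.1 in phloem, or 0.95 (SE 0.24, adjusted p = 0.012). Every xylem array was above every phloem array for each of the 7 genes. The count was 6 after spike-in scaling, where SEC5B was lost, and 6 again without either phloem array. The cortex means of EXO84B and SEC10, 525 and 545, lay between the xylem and the phloem values.

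Other parts of the secretory route were assembled into groups after their values had been seen. Their counts stand beside the 13.9% of all probe sets called higher, a share that depended on the scaling. Of 14 adaptor, TPLATE and PRA1 genes, which act in membrane traffic, 8 were higher and 2 lower in xylem, with a median of 0.95. TPLATE, part of a complex for endocytosis, had 959, 926 and 1037 in xylem, against 226 and 249 in phloem, or 1.96 (SE 0.17, adjusted p = 3.4e-05). The 2 lower calls, PRA8 at -0.85 (SE 0.22) and PRA1.A1 at -0.52 (SE 0.18), were lost without either phloem array, and PRA1.A1 turned to 0.09 after median centring. Of 7 genes for folding and stress responses in the endoplasmic reticulum 6 were higher and none lower, with a median of 1.30. The number higher was 5 after spike-in scaling and 7 after median centring. The chaperone calreticulin CRT1b had 7072, 6075 and 6806 in xylem, against 1970.2 and 1579 in phloem, or 1.90 (SE 0.20). The cochaperone ERDJ3B stood at 1.89 (SE 0.17), and OS9, a lectin of the pathway that degrades misfolded proteins, at 2.03 (SE 0.20). The membrane-anchored stress factors BZIP17 and BZIP28 were higher by 1.30 (SE 0.23) and 1.26 (SE 0.20). BZIP60, with 1382, 1002 and 1417 in xylem against 693 and 679 in phloem, was higher by 0.85 (SE 0.22), a call lost without either phloem array.

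Of 12 tubulin and microtubule genes 7 were higher in xylem and 2 lower, where 13.9% of all probe sets were called higher, with a median of 0.99 that kept its sign under every scaling tried. The beta-tubulin TUB6 had 7404, 4087 and 6202 in xylem, against 861 and 605 in phloem, or 2.96 (SE 0.27). KINESIN-13A, which takes microtubules apart at the pits of xylem walls, had 2591, 2091 and 3267 in xylem, against 897 and 666 in phloem, or 1.73 (SE 0.22). TUA6, TUB9 and the bundling protein ATMAP65-6 were higher as well, by 1.88 (SE 0.22), 1.37 (SE 0.21) and 1.30 (SE 0.21). TUB1 had 351, 241 and 224 in xylem, against 452 and 476 in phloem and a mean of 4243 in cortex, and was lower by a log2 fold change of -0.76 (SE 0.20). TUB1 and KINESIN-12B, the 2 lower genes, lost their calls without either phloem array, and 1 was lower without xylem replicate 2 or 3.

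On the actin side, ACT11, an actin best known from reproductive tissue, had 7159, 5026 and 7357 in xylem, against 447 and 287 in phloem, or 4.10 (SE 0.24, adjusted p = 3.4e-06). No other of the 8 actin and myosin genes measured passed the test, and the rest ranged from -0.58 to 0.49, while 3 of the 8 were called higher after quantile normalization, 6 after median centring, and 1 higher and 2 lower after spike-in scaling. The 3 regulators of branched actin below were looked at after their values had been seen, and all were higher. SPK1, the exchange factor that switches on ROP GTPases, had 2482, 2346 and 2639 in xylem, against 301 and 236 in phloem, or 3.15 (SE 0.19). PIR121 and BRK1, subunits of the SCAR/WAVE complex that acts downstream of ROPs, stood at 3.04 (SE 0.23) and 2.94 (SE 0.25). Of 15 LIM and NET genes, whose products bundle actin or tie it to membranes, 6 were higher and 1 lower, with a median of 0.02 that became -0.12 after spike-in scaling. Without phloem replicate 1 the count was 5 higher and 4 lower. NET1D had 974, 990.4 and 983 in xylem, against 121 and 92.9 in phloem, or 3.03 (SE 0.19). NET4B had 112, 39.5 and 152 in xylem, against 654 and 520.3 in phloem, or -2.50 (SE 0.40). The 15 IQD genes, calmodulin-binding proteins of which several sit on microtubules, lay on both sides, with 7 higher and 5 lower and a median of 0.34. Counts in this paragraph stand beside 13.9% of all probe sets called higher and 28.5% called lower. IQD31 had 3291, 3088 and 3482 in xylem, against 709 and 523 in phloem, or 2.40 (SE 0.18), and IQD24 was the lowest at -1.89 (SE 0.12).

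**Figure D3:**
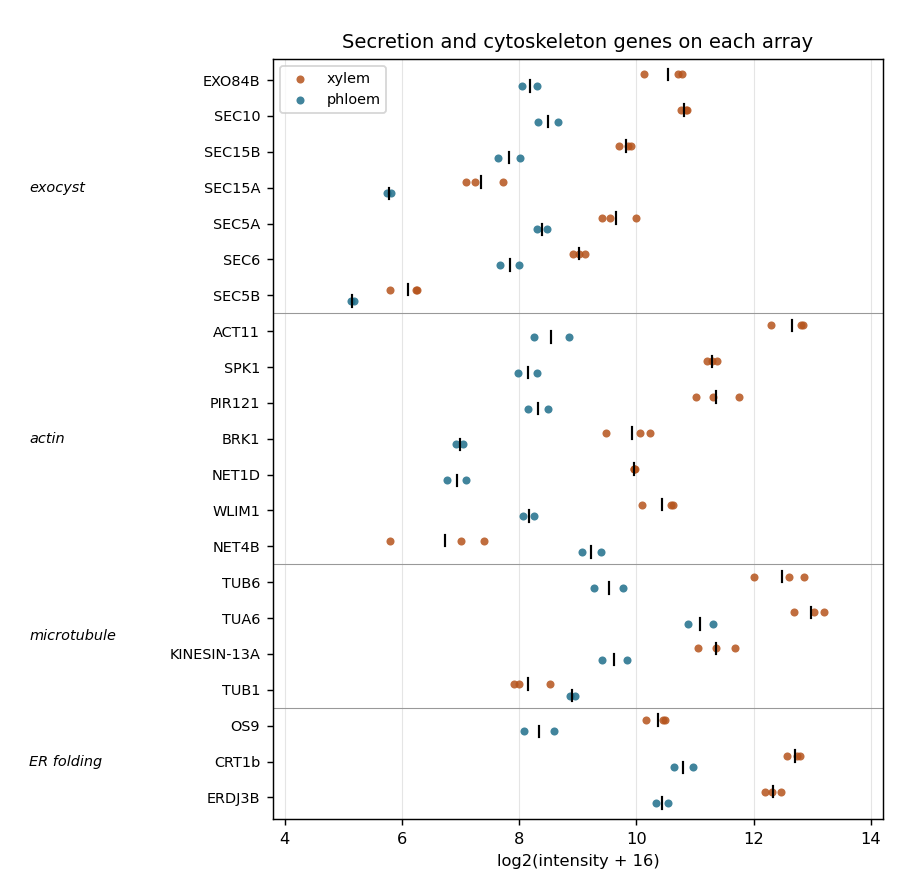
Level of exocyst, actin, microtubule and endoplasmic reticulum genes on each array, as log2(intensity + 16), with xylem points above phloem points for each gene and a black line at each mean. In all but NET4B and TUB1 every xylem array lies to the right of both phloem arrays.

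Cytosolic ATP-citrate lyase, which makes the acetyl-CoA used outside organelles, was higher in xylem in 3 of 4 genes, a group chosen after its values had been seen. Over all probe sets 13.9% were called higher. ACLA-2 had 10597, 10239 and 9768 in xylem, against 2464 and 1498 in phloem, or 2.40 (SE 0.25). ACLB-1 stood at 2.09 (SE 0.22) and ACLA-1 at 1.87 (SE 0.17), while ACLA-3 did not pass at 0.28 (SE 0.25). HMT-1, a homocysteine methyltransferase that makes methionine, had 9179, 8786 and 9531 in xylem, against 1000.3 and 729 in phloem, or 3.40 (SE 0.19). The mitochondrial dehydrogenase NDB3 had 907, 323 and 1061 in xylem, against 47.7 and 51.1 in phloem, or 3.41 (SE 0.43).

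Genes of phloem signals lay on the phloem side. All 4 measured phloem signal genes were lower in xylem, where 28.5% of all probe sets were called lower, and their median was -5.10. That size is set in part by the added 16, since the xylem values lie near it: the median was -6.34 with 1 added and -3.76 with 64 added. CLE26, a small peptide signal, had 2.01, 4.2 and 20 in xylem, against 909 and 637 in phloem, or -5.04 (SE 0.34). CLE44, which with CLE41 encodes the peptide that keeps vascular stem cells from becoming xylem, had 16.4, 20.6 and 19.2 in xylem, against 99.3 and 54.4 in phloem, or -1.38 (SE 0.25). Both calls came with arrays that did not overlap. Of 5 CLE peptide genes measured 3 were lower and 2 were not called, the highest at 0.04. The calcium-binding CML30 had 113, 90.4 and 75.9 in xylem, against 3906 and 3106 in phloem and a mean of 21.5 in cortex, or -5.02 (SE 0.22). In the calmodulin-like group 1 gene was higher and 4 were lower of 8, with a median of -0.72, and CML23 was the higher one at 1.49 (SE 0.34), a call lost without phloem replicate 2, where 2 genes were lower. Without xylem replicate 2 there were 2 higher and 3 lower, and 2 were lower after quantile normalization or median centring. Over all probe sets 13.9% were called higher and 28.5% lower, and 34.9% of genes with a symbol were called lower.

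The glucosinolate transporters GTR1 and GTR2 were lower in xylem. They belong to a group of 12 nitrate and peptide transporters, of which none was higher and 4 were lower, near the 28.5% of all probe sets. The median of -0.38 became 0.23 after median centring, where 3 were higher and 4 lower, and 1 was higher after quantile normalization. GTR2 had 33.4, 29.1 and 46.0 in xylem, against 1536 and 1214 in phloem and a mean of 571 in cortex. GTR1 had 199.8, 115 and 239 in xylem, against 1762 and 1868 in phloem and a mean of 3770 in cortex. Both import glucosinolates, the defence compounds of this plant family, and had their lowest values in xylem, at -4.74 (SE 0.21, adjusted p = 8.1e-07) for GTR2 and -3.24 (SE 0.34, adjusted p = 9.3e-05) for GTR1.

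The SWEET sugar transporters were found on both sides. Of 16 genes 2 were higher and 5 lower in xylem, near the 13.9% and 28.5% of all probe sets. The median was close to 0 and ran from -0.16 after spike-in scaling to 0.61 after median centring. The count was 4 higher and 4 lower after quantile normalization and 6 higher and 4 lower after median centring. SWEET17, a fructose carrier of the vacuole, had 772, 526 and 378 in xylem, against 104 and 98.4 in phloem, or 2.23 (SE 0.26). SWEET16, also of the vacuole, had 397, 321 and 259 in xylem, against 92.7 and 112 in phloem, or 1.51 (SE 0.31). Neither was particular to xylem, with cortex means of 452 for SWEET17 and 615 for SWEET16. The 5 lower genes were SWEET11, a sucrose exporter of the plasma membrane, at -4.25 (SE 0.25), SWEET3 at -3.38 (SE 0.29), SWEET14 at -2.59 (SE 0.24), SWEET8 at -1.49 (SE 0.30) and SWEET13 at -0.97 (SE 0.29). SWEET3 had 21.9, 22.7 and 48.0 in xylem, against 386 and 538 in phloem. The call of SWEET13 was lost under 8 alternatives.

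Among regulators of transcription, of 7 WRKY factors none was higher in xylem and 4 were lower, with a median of -1.26. This count and those of the bHLH and bZIP factors stand beside 13.9% of all probe sets called higher and 28.5% called lower. WRKY6 had 18.3, 15.1 and 28.7 in xylem, against 382 and 320.4 in phloem and a mean of 1361 in cortex, or -3.33 (SE 0.34). WRKY22, which acts in defence, had 128, 47 and 206 in xylem, against 1138 and 795 in phloem, or -2.94 (SE 0.61). Of 7 bHLH factors 5 were lower, with a median of -0.81, a count that fell to 2 with 1 higher after median centring and to 3 without either phloem array. The largest difference was in bHLH104, of the group that switches on iron uptake, with 294, 241 and 303 in xylem against 1182 and 1396 in phloem, or -2.15 (SE 0.18). Its relatives bHLH115 and ILR3 stood at -0.81 (SE 0.20) and -0.81 (SE 0.25). The call of bHLH115 was lost under 3 alternatives, among them leaving out phloem replicate 2, and that of ILR3 under 7, among them leaving out either phloem array or xylem replicate 1. Of 22 bZIP factors 5 were higher and 2 lower, with a median of -0.20 that became 0.41 after median centring, where 9 were higher and 2 lower. The count was 2 higher and 3 lower without phloem replicate 2 or after spike-in scaling, 3 and 2 without phloem replicate 1, and 4 and 4 without xylem replicate 3. The lower ones were bZIP44, with 252, 177 and 237 in xylem against 3546 and 2891 in phloem, or -3.77 (SE 0.24), and bZIP19, which senses zinc deficiency, at -2.0 (SE 0.21).

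Auxin genes went both ways, 2 higher and 5 lower of 12, where 13.9% and 28.5% of all probe sets were. The median of -0.36 became 0.25 after median centring. The count was 1 higher and 3 lower without phloem replicate 1, 1 and 4 without phloem replicate 2, 3 and 2 after quantile normalization, and 4 and 3 after median centring. The repressor IAA29 had 1491, 1764 and 1362 in xylem, against 49.8 and 96.5 in phloem, or 4.17 (SE 0.25). GH3.17, which couples auxin to amino acids, had 16.0, 3.87 and 21.8 in xylem, against 279 and 233 in phloem and a mean of 965 in cortex, or -3.23 (SE 0.33). The auxin-induced homeobox factor HAT2 had 312, 416 and 298 in xylem, against 2088 and 1842 in phloem, or -2.48 (SE 0.24). LBD16, which acts in lateral root initiation, had 88.8, 98.5 and 89.8 in xylem, against 405 and 655 in phloem, or -2.29 (SE 0.23), and LBD29 stood at -1.88 (SE 0.29).

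Genes of the ER body, a store of beta-glucosidase for defence, were low in xylem. In this group, assembled after the values had been seen, 5 of 9 genes were lower and none higher, with a median of -1.85. The share called lower was 28.5% of all probe sets and 34.9% of genes with a symbol. PYK10, the main beta-glucosidase of ER bodies, had 801, 112 and 712 in xylem, against 6007 and 5439 in phloem and a mean of 6393 in cortex. NAI2, a structural ER body protein, had 105, 36.8 and 142 in xylem, against 1420 and 1434 in phloem. Xylem replicate 2 was the lowest xylem array for both, as it was for NAI1, the factor that switches these genes on, and for the lectin JAL34, and in each case the other xylem arrays were still below both phloem arrays. NAI1 had 65.1, 21.7 and 58.2 in xylem, against 254 and 207 in phloem, and JAL34 had 481, 86.6 and 494 in xylem, against 3601 and 3511 in phloem. The log2 fold changes were -3.76 (SE 0.68) for PYK10, -3.84 (SE 0.41) for NAI2, -2.01 (SE 0.36) for NAI1 and -3.59 (SE 0.60) for JAL34. Without xylem replicate 2 the count of lower genes was again 5 of 9, with a median of -1.66.

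The counts of 3 groups of redox enzymes stand beside the 28.5% of all probe sets and the 34.9% of genes with a symbol that were called lower. Of 5 methionine sulfoxide reductases, which repair oxidised methionine, 4 were lower in xylem and none higher, again in a group assembled with its values seen, and the median was -2.36, while 1 was higher after quantile normalization or median centring. MSRB5 had 153, 121 and 177 in xylem, against 2489 and 3502 in phloem, or -4.17 (SE 0.22). MSRB9 had 251, 11.7 and 451 in xylem, against 2747 and 2942 in phloem, or -4.24 (SE 0.96), with xylem replicate 2 far below the other xylem arrays. Of 10 thioredoxin and glutaredoxin genes 6 were lower and none higher, with a median of -1.06. GRXC2, a glutaredoxin, had 269.9, 187 and 265 in xylem, against 3629 and 3792 in phloem, or -3.88 (SE 0.23). Of 13 glutathione S-transferases 1 was higher and 7 were lower, with a median of -1.25, and 2 were higher after median centring. GSTU22, the higher one, had 2768, 1823 and 2155 in xylem, against 1199 and 1066 in phloem, or 0.96 (SE 0.20). GSTU18 had 314, 221 and 259.5 in xylem, against 2178 and 1465 in phloem and a mean of 64.2 in cortex, or -2.70 (SE 0.22).

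**Figure D4:**
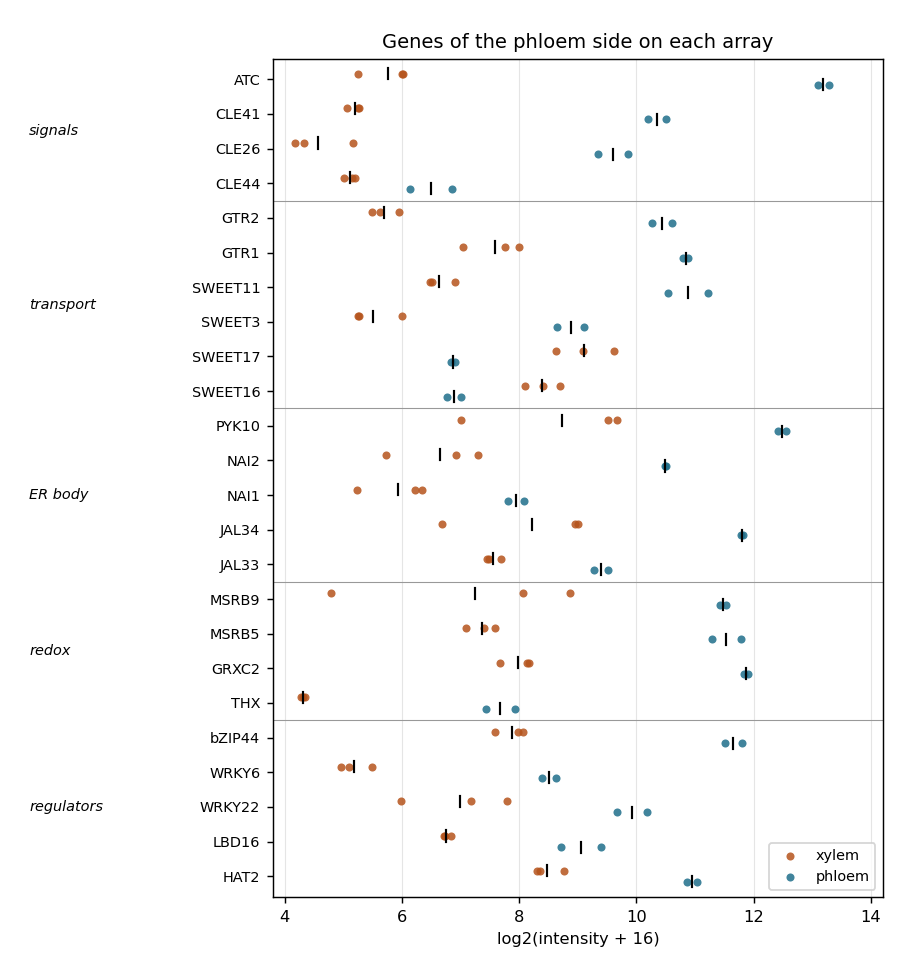
Level of signal, transport, ER body, redox and regulator genes on each array, as log2(intensity + 16), with xylem points above phloem points for each gene and a black line at each mean. SWEET17 and SWEET16 are the genes with xylem to the right, and single low xylem points of PYK10, JAL34 and MSRB9 are replicate 2.

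Families put together after their values had been seen also held close relatives on opposite sides. Their counts stand beside 13.9% of all probe sets called higher and 28.5% called lower. Among genes with a symbol 34.9% were called lower. Of 15 tetraspanins, membrane proteins that organise small patches of membrane, 2 were higher and 6 lower in xylem, with a median of -0.34 that became 0.27 after median centring, where 6 were higher. Leaving out either phloem array or xylem replicate 1 or 2 left 1 higher. TET7 had 2016, 1345 and 1827 in xylem, against 237 and 243 in phloem, or 2.75 (SE 0.21). Its cortex mean was 1125, also above both phloem arrays. TET6 had 39.7, 57.2 and 28.7 in xylem, against 961 and 913 in phloem, or -4.07 (SE 0.28). Of 9 PUB ubiquitin ligases 4 were higher and 4 lower, with a median of -0.38 that became 0.23 after median centring. PUB25 and PUB26, a pair that mark the immune kinase BIK1 for breakdown, were higher by 2.16 (SE 0.34) and 2.19 (SE 0.23). PUB22, PUB23 and PUB24, a trio that dampens immune responses, were lower at -2.64 (SE 0.25), -3.38 (SE 0.35) and -1.79 (SE 0.30). PUB23 had 74.9, 56.2 and 93.5 in xylem, against 1020.1 and 829.7 in phloem, and PUB26 had 307, 285 and 278 in xylem, against 53.8 and 48.2 in phloem.

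ATG8 genes, whose products build the autophagy membrane, made up most of the 11 autophagy genes measured, of which none was higher and 5 were lower in xylem. By comparison, 28.5% of all probe sets and 34.9% of genes with a symbol were called lower. ATG8B had 91.4, 105 and 68.0 in xylem, against 625 and 494 in phloem, or -2.47 (SE 0.25). ATG8D had 1185, 1090.4 and 827 in xylem, against 1078 and 982 in phloem, so the arrays overlapped and the difference was -0.01 (SE 0.20). The median of the group, -0.41, became 0.20 after median centring, where 3 were higher and 3 lower. A single gene was called higher after quantile or trimmed-mean scaling and without xylem replicate 2, and 3 were lower without either phloem array.

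Transcripts of the plastid genome were lower in xylem almost throughout. Of 69 measured plastid genes 61 were lower and none higher, with a median of -1.96, where 28.5% of all probe sets were called lower. Their median intensity was 78.6, 59.9 and 72.5 on the xylem arrays, against 413 and 368 on the phloem arrays and 165 to 169.7 on the cortex arrays. All 3 xylem arrays lay below every phloem and cortex array in this measure. The lowest was the ribosomal protein gene rps4 at -3.52, and the 8 genes not called ran from -1.0 for ndhE to 0.11 for ndhH. Between 53 and 65 of the genes were lower under the scalings tried, and 1, after median centring, was higher. Few plastid transcripts carry the poly(A) tails on which this kind of amplification starts, and the part of this in the result was not tested.

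Nuclear RNA polymerase subunits, a further group assembled with its values seen, were mostly lower in xylem, with 9 lower and 1 higher of 12 and a median of -1.24. The number lower was 7 after quantile normalization and 6 after median centring. These counts and those of the LSM proteins below stand beside the 28.5% of all probe sets and 34.9% of genes with a symbol called lower. NRPB12 had 79.3, 26.6 and 80.3 in xylem, against 620.4 and 520.1 in phloem, or -3.0 (SE 0.34). The higher one was NRPC2, a core subunit of RNA polymerase III, with 605, 516 and 715 in xylem against 203 and 126 in phloem, or 1.82 (SE 0.23). NRPC1, the other large subunit of that enzyme, went the other way at -0.76 (SE 0.23), a call lost under 7 alternatives. Without phloem replicate 1 only 5 subunits were lower. Of 6 LSM proteins, which act in RNA splicing and decay, 5 were lower and none higher, with a median of -1.44, and 3 were lower after median centring. LSM3B was the lowest at -2.53 (SE 0.23).

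**Figure D5:**
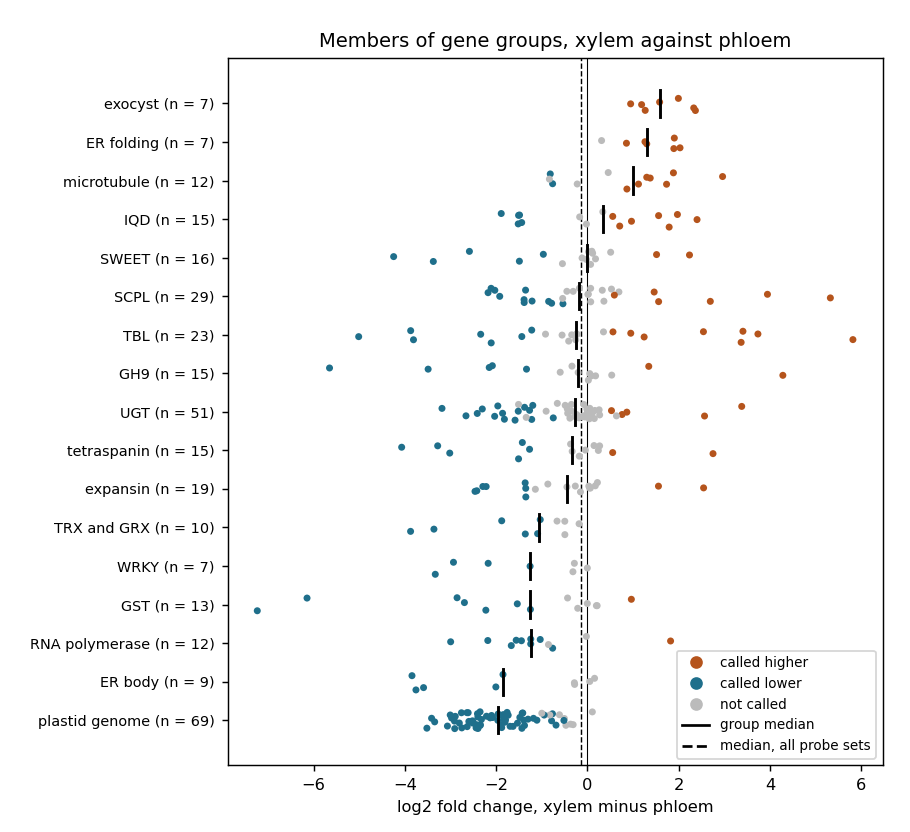
Log2 fold change, xylem minus phloem, of each measured member of 17 gene groups, with called members coloured, group medians as black bars and the median of all probe sets, -0.15, as a dashed line. The exocyst and ER folding groups lie to the right, the ER body and plastid groups to the left, and the SCPL, TBL and GH9 families reach far in both directions.

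Genes without a symbol made up most of the largest differences. Of 41 probe sets called at least 64-fold higher in xylem (0.18% of those tested) 2 had a gene symbol, 19 had a locus tag alone and 20 had no single gene listed. Of 67 called at least 64-fold lower (0.295%) 4 had a symbol, 35 a locus tag alone and 28 no single gene. The groups above therefore describe the named part of the array.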

How the data were processed

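Values were the deposited array intensities, 1 linear value per probe set and array, which the authors computed with MAS5 according to the submitters' processing notes. Its version and target value are not stated there, and the table holds no detection calls. All 8 sample columns were used. Of 22810 probe sets, 64 controls were left out. Intensities were taken as log2(value + 16) and compared with limma 3.58.1 under R 4.3.3 (a mean for each cell type, intensity trend, 5 residual degrees of freedom, a median of 3.66 added by moderation), and p-values of the contrast xylem minus phloem were adjusted by Benjamini-Hochberg over 22746 probe sets. Arrays have no depth, and precision is limited by their number.

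Names came from the platform annotation and a RefSeq table of assembly TAIR10.1: 13513 had 1 gene, 503 several and 8730 none listed, 13436 matched RefSeq, and a symbol was available for 1551. No genome coordinates or sequences are printed. A gene with several probe sets is given by the brightest, and no gene had probe sets called in opposite directions. Named are genes with a symbol among the 20 highest and 20 lowest called probe sets that were above the median probe set and did not overlap between the tissues, up to 10 each way of genes with a full name alone, all members of the fixed lists, and the 3 highest and 3 lowest called members of families with at least 5 measured genes. A further 23 were named after their values were seen. Members and lists were chosen with earlier results of these data known, and the groups described as assembled with their values seen support nothing by themselves. Replicate numbers are shared between the groups. Deviations from the group means had r = 0.13 and 0.15 for the same numbers in xylem and phloem, over only 2 pairs, and no label says that a number marks a shared batch. Plots used matplotlib 3.10.9 (Python 3.11.15).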

Additional observations from a re-analysis of the deposited data

How the results depend on the processing

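The total of 9639 called among 22746 probe sets became 13069 after median centring. With only the 12918 probe sets of mean intensity above 50 tested, it was 8295, a larger share of those tested. Calls higher in xylem, 3163 with the arrays as deposited, numbered 5002 with quantile normalization, 9305 with median centring and 2069 with spike-in scaling, while calls lower in xylem, 6476 as deposited, numbered 3764 after median centring, which shifts all probe sets. Leaving out 1 array at a time gave totals of 7101 to 10204, with 2126 to 3638 higher and 4770 to 6566 lower, and the lowest total came without phloem replicate 2, where the lone phloem array was assumed to vary like the other groups. With the replicate number as a block the total was 9114, with 3000 higher and 6114 lower, and the numbers pair nothing by the labels. Of the 220 called genes named by rule, 182 kept their call and direction under each of the alternatives that could be computed and 38 lost the call under 1 or more, as did 4 of the 19 called genes among those added. PRA1.A1 reversed to 0.088 after median centring, and ATG8D, not called at -0.01, stood at 0.60 there. Fold changes of genes under the added 16 in 1 tissue are set by that number, and intensities of that size are not shown to exceed background.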

Other observations

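Families outside the comparisons above also held genes that differed, all in groups assembled after their values were seen. Over all probe sets 13.9% were called higher and 28.5% lower, and the RALF and beta-glucosidase counts of lower calls lay near that share. Among 10 RALF-like peptides, secreted signals that bind receptor kinases, 2 were higher and 3 lower in xylem, with a median of -0.18, and 4 higher and 2 lower after median centring. RALFL32 had 95.6, 159 and 151.96 in xylem, against 1428 and 2182 in phloem and a mean of 22.4 in cortex, or -3.58 (SE 0.31). RALFL24 had 467, 378 and 402 in xylem, against 101 and 89.1 in phloem, or 1.95 (SE 0.17). Of 8 aldehyde dehydrogenases 5 were lower and none higher, with a median of -0.92, and 3 were lower after median centring. ALDH2C4, which oxidises the aldehydes of the lignin pathway to ferulic and sinapic acid, had 76.1, 70.4 and 81.1 in xylem, against 667 and 677 in phloem and a mean of 2356 in cortex, or -2.91 (SE 0.15). Of 22 beta-glucosidases 2 were higher and 7 lower, with a median of -0.22 that became 0.39 after median centring, where 8 were higher and 4 lower, and without phloem replicate 1 the count was 1 higher and 6 lower. BGLU46, which releases monolignols from their glucosides, had 522, 385 and 534 in xylem, against 1335 and 1120.5 in phloem, or -1.33 (SE 0.25). BGLU41 had 941, 1318 and 821 in xylem, against 204 and 154 in phloem, or 2.40 (SE 0.27). The adjusted p-values of these 5 genes in limma were at most 0.0026.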
